A study of Mus musculus with 2 samples.

Results

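The mir-181 family of the mouse comprises 6 microRNA genes in 3 clusters of 2, and all 6 were counted in hippocampal tissue of aged male mice. The genes were taken by their GENCODE M21 symbols, Mir181a-1, Mir181b-1, Mir181a-2, Mir181b-2, Mir181c and Mir181d, out of 2202 annotated miRNA genes. Total RNA of the strain B6CASTF1/J, a hybrid of C57BL/6 and CAST/Ei parents, was profiled by microRNA sequencing at 18 to 20 months of age. The labels name the source of both libraries as layer of hippocampus tissue. There was 1 group of 2 libraries, labelled biological replicates 1 and 2, with a tissue entry each and 1 donor entry for both. No treatment, genotype, age or sex was compared. Nothing in the labels says that separate animals were used, so the spread between the libraries may be technical.

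MicroRNAs are cut from hairpin transcripts as a pair of arms, 5p and 3p, and the arm loaded into an Argonaute protein pairs with messenger RNAs mainly through its seed, bases 2 to 8. The miR-181 family is best known from lymphocytes, where miR-181a sets the sensitivity of developing T cells to antigen. It is also expressed in brain, where miR-181a has been described as a regulator of the AMPA receptor subunit GluA2 in neurons.

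The 6 genes yield 4 different 5p arms. Each has the seed ACAUUCA, which no gene outside the family has among the 1679 mature names of the RefSeq table (build GRCm38.p6). The 5p arms are printed because they decide which reads can be told apart, with the seed in capitals.
miR-181a-5p (Mir181a-1 and Mir181a-2): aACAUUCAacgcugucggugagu
miR-181b-5p (Mir181b-1 and Mir181b-2): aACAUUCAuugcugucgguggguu
miR-181c-5p (Mir181c): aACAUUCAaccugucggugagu
miR-181d-5p (Mir181d): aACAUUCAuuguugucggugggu

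Counted from 1 at the 5′ end, miR-181d-5p differs from miR-181b-5p by the single substitution C12U over their first 23 bases, with the base of miR-181b first. miR-181c-5p, of 22 bases, is 1 edit away from miR-181a-5p, of 23 bases. miR-181a-5p and miR-181b-5p differ by A9U, C10U and A21G over 23 bases. The family thus falls into an a-like and a b-like form of the 5p arm, and each cluster holds 1 gene of each form. The arms of miR-181a and miR-181b are each found whole in 2 annotated hairpins, and those of miR-181c and miR-181d in 1 hairpin each.

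The 3p arms tell all 6 genes apart. None of them occurs whole in another annotated hairpin. They are printed with their seeds in capitals because a read of a 3p arm can be assigned to a single gene.
miR-181a-1-3p: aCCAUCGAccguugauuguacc
miR-181a-2-3p: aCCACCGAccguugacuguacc
miR-181b-1-3p: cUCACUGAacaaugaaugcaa
miR-181b-2-3p: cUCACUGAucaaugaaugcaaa
miR-181c-3p: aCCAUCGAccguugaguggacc
miR-181d-3p: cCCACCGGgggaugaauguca

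The a copies differ in the 3p arm by U5C and U16C, with the base of Mir181a-1 first, and the first of these falls in the seed. The b copies share the 3p seed UCACUGA and differ by A9U over 21 bases, with the base of Mir181b-1 first. miR-181a-1-3p shares its 3p seed CCAUCGA with miR-181c-3p, from which it differs by U16G and U19G. The 3p seeds of miR-181a-2 and miR-181d have no match among the mature names of the table.

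In the mm10 genome, Mir181a-1 (ENSMUSG00000065565.1) lies on chromosome 1 from 137966455 to 137966541 and Mir181b-1 (ENSMUSG00000065458.1) from 137966639 to 137966718, both on the plus strand. Both lie in an intron of the non-coding gene Gm4258, on its own strand, and antisense to an intron of the lincRNA Gm26936. Mir181b-1 also lies wholly, by all 80 of its bases, in an exon of the lincRNA A430106G13Rik, which covers only the last 11 bases of Mir181a-1. Mir181a-2 (ENSMUSG00000065423.1) lies on chromosome 2 from 38852735 to 38852810 and Mir181b-2 (ENSMUSG00000065578.1) from 38853830 to 38853918, on the plus strand. This cluster is antisense to an intron of Nr6a1, a gene for an orphan nuclear receptor, and an exon of the unclassified gene Gm44144 runs across Mir181b-2 on the minus strand. Mir181c (ENSMUSG00000065483.2) lies on chromosome 8 from 84178873 to 84178961 and Mir181d (ENSMUSG00000076338.1) from 84178716 to 84178787, on the minus strand. Both lie in an intron of Nanos3, a gene known from germ cells, on its own strand. The hairpins of a cluster are 97, 1019 and 85 bases apart, in the order of the clusters given here. No other miRNA gene of the tables lies within 10 kb of a member.

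**Figure D1:**
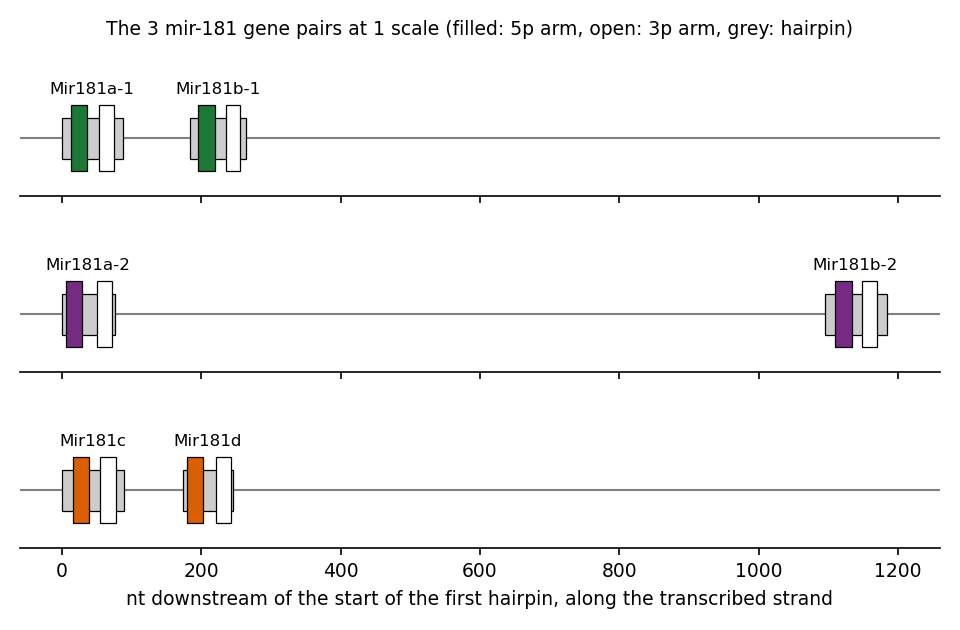
Map of the 3 mir-181 clusters drawn to 1 scale, with the distance in nt from the start of the upstream hairpin on the horizontal axis. Grey boxes are hairpins, filled boxes 5p arms and open boxes 3p arms. The hairpins are 97 nt apart in the first cluster, 1019 nt in the second and 85 nt in the third.

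The libraries held 3758318 counts (replicate 1) and 5598792 counts (replicate 2) on the sense strand of miRNA genes, out of 10594081 and 16131923 reads. Reads that mapped to several places made up 51.5% of replicate 1 and 46.7% of replicate 2 and are in no gene's count. Markers of brain cells were present. Of the 13 listed neuronal genes 10 were detected, led by Mir132 and Mir128-1, with a sum of 53004 ± 1738 CPM (counts in 1000000 sense counts over all miRNA genes, given as mean ± SD over n = 2 libraries, as are all means below). The 3 copies of Mir124a, a defining neuronal microRNA, summed to only 0.891 CPM. Their hairpins share at least 32 nt with another annotated hairpin, and whether this has a part in the low sum was not tested.

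The family as a whole had 17040 counts (4534 CPM) in replicate 1 and 31446 counts (5617 CPM) in replicate 2. Its mean was 5075 ± 766 CPM, which is 0.508% of all counted reads. Detection was set at 10 or more counts in both libraries, which 17.4% of all miRNA genes met, and all 6 members met it. The detected genes closest to the family sum in both libraries were Mir324, Mirlet7f-2 and Mir30d, by Euclidean distance in log2(CPM + 1) over the 2 libraries. Mir324 had 5102 and 6026 CPM at a distance of 0.20, Mirlet7f-2 had 4817 and 4694 CPM at 0.27 and Mir30d had 5520 and 4984 CPM at 0.33, each in replicates 1 and 2. In counts of whole tissue, fewer cells of a type and less RNA per cell cannot be told apart.

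The Mir181c/Mir181d cluster held most of the family's assigned counts. Its 5p arms are found in 1 hairpin each, whereas reads made only of the 5p arms that the 4 a and b genes share map to 2 places and are in no count, so all levels, shares and ranks here are of reads assigned to 1 gene. Mir181c, the a-like gene of this cluster, had 5195 counts (1382 CPM) in replicate 1 and 11289 counts (2016 CPM) in replicate 2. Its mean of 1699 ± 448 CPM put it at rank 68 of all miRNA genes. Mir181d, the b-like gene, had 5748 counts (1529 CPM) and 9232 counts (1649 CPM). Its mean was 1589 ± 84.5 CPM, at rank 70. The ranges of the 2 genes overlapped, and their order turned between the libraries. Mir181d made up 52.5% of the cluster in replicate 1 (95% Wilson interval 51.6 to 53.5%) and 45.0% in replicate 2 (44.3 to 45.7%). Neither gene lay above the other in both libraries. The cluster's share of the family was 64.2% in replicate 1 (63.5 to 64.9%) and 65.3% in replicate 2 (64.7 to 65.8%). These intervals overlap, which does not show that the shares are equal.

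In the other 2 clusters a single gene held nearly every count, and it was the a form in one and the b form in the other. In the chromosome 1 cluster, Mir181a-1 had 2935 counts (781 CPM) in replicate 1 and 3729 counts (666 CPM) in replicate 2, a mean of 723 ± 81.2 CPM. Its neighbour Mir181b-1 had 27 counts (7.18 CPM) and 78 counts (13.9 CPM), a mean of 10.6 ± 4.77 CPM. The ranges were far apart, and Mir181a-1 made up 99.1% of the cluster in replicate 1 (98.7 to 99.4%) and 98.0% in replicate 2 (97.5 to 98.4%).

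The chromosome 2 cluster had the opposite pattern. Mir181b-2 had 3105 counts (826 CPM) in replicate 1 and 7077 counts (1264 CPM) in replicate 2, a mean of 1045 ± 310 CPM. Mir181a-2 had 30 counts (7.98 CPM) and 41 counts (7.32 CPM), a mean of 7.65 ± 0.466 CPM. Mir181b-2 thus made up 99.0% of this cluster in replicate 1 (98.6 to 99.3%) and 99.4% in replicate 2 (99.2 to 99.6%). Together, Mir181b-1 and Mir181a-2 had 57 and 119 counts in replicates 1 and 2, or 0.335% and 0.378% of the family.

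**Figure D2:**
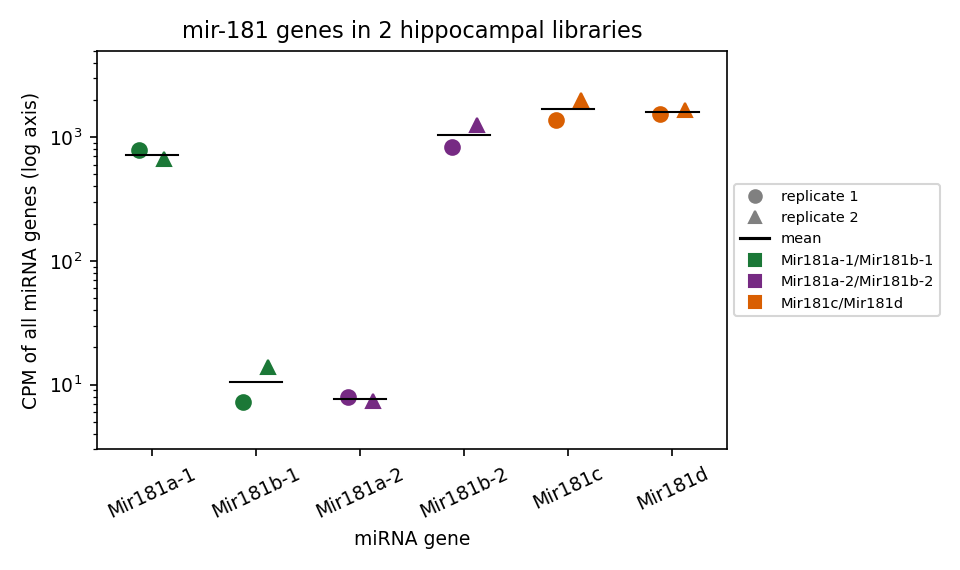
CPM (vertical log axis) of the 6 mir-181 genes in replicate 1 (circles) and replicate 2 (triangles), coloured by cluster, with lines at the mean. Mir181a-1, Mir181b-2, Mir181c and Mir181d lie between 666 and 2016 CPM, and Mir181b-1 and Mir181a-2 between 7.18 and 13.9 CPM.

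In falling order of mean CPM, over assigned reads only, the genes were Mir181c, Mir181d, Mir181b-2, Mir181a-1, Mir181b-1 and Mir181a-2. Mir181c and Mir181d did not differ beyond their spread, nor did Mir181b-1 and Mir181a-2. Mir181d lay above Mir181b-2 in both libraries, with a lowest value of 1529 CPM for Mir181d and a highest value of 1264 CPM for Mir181b-2. Mir181b-2 lay above Mir181a-1 by a narrow margin, with a lowest value of 826 CPM for Mir181b-2 and a highest value of 781 CPM for Mir181a-1. In replicate 1 these 2 genes had 1.06 reads of Mir181b-2 for each read of Mir181a-1, and in replicate 2 they had 1.90. The mature arms are 21 to 24 bases long in all members, so counts were not divided by gene length. The lengths of the reads themselves were not examined. Per 100 nt of hairpin, which ranges from 72 nt for Mir181d to 89 nt for Mir181c and Mir181b-2, Mir181d came before Mir181c and the other ranks stayed.

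Genes that encode the same mature 5p arm were therefore counted very unequally. Mir181a-1 had 97.8 reads for each read of Mir181a-2 in replicate 1 and 91.0 in replicate 2. Mir181b-2 had 115.0 reads for each read of Mir181b-1 in replicate 1 and 90.7 in replicate 2. The share of the leading copy was 99.0% (Wilson interval 98.6 to 99.3%) and 98.9% (98.5 to 99.2%) for Mir181a-1, and 99.1% (98.7 to 99.4%) and 98.9% (98.6 to 99.1%) for Mir181b-2, in replicates 1 and 2. The intervals of the libraries overlap, which does not show that the shares are equal. These ratios and shares are of assigned reads and not of the output of the copies, because a read that holds only letters common to both copies maps to both places. The hairpins of Mir181a-1 and Mir181a-2 share a run of 28 nt, which spans the whole 5p arm with 1 base before it and 4 bases after it. Those of Mir181b-1 and Mir181b-2 share a run of 26 nt, which has 2 bases before the arm and 0 after it. The longest run that Mir181c shares with any other annotated hairpin is 17 nt, with Mir181a-1 and with Mir181a-2, and that of Mir181d is 13 nt, with Mir181b-1.

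The 5p arms of the copies are shown with 5 bases before and 8 after them, from the RefSeq hairpins on the plus strand of build GRCm38.p6. Capitals mark letters that differ between the 2 copies at the same offset, and positions are counted from 1 at the 5′ end of the printed window, in which the arm begins at position 6.
Mir181a-1, chr1:137966463-137966498: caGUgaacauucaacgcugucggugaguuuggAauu
Mir181a-2, chr2:38852736-38852771: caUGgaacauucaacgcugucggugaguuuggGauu
Mir181b-1, chr1:137966645-137966681: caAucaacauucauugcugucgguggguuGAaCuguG
Mir181b-2, chr2:38853840-38853876: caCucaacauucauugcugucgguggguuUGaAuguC

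The a copies differ in the window by G3U, U4G and A33G, with the base of Mir181a-1 first, and their arm ends at position 28. The b copies differ by A3C, G30U, A31G, C33A and G37C, with the base of Mir181b-1 first, and their arm ends at position 29. A 5p read can therefore be placed in a b copy when it runs 1 base past the arm or reaches back to position 3, while in an a copy it must reach position 33 or back to position 4. The tables give 1 count per gene and not per arm. Whether the reads of Mir181a-1 and Mir181b-2 came from 3p arms or from longer 5p reads, and how many reads of miR-181a-5p and miR-181b-5p are among those that mapped to several places, was not tested.

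A list of other families with copies at several loci gave the context for these shares. Whether the copies in these families have identical mature arms was not examined. In mir-101, of Mir101a and Mir101b, the shorter of the longest shared runs was 20 nt, against 28 nt in mir-181a and 26 nt in mir-181b. Of 24 such families 16 had at least 100 counts in each library. Every hairpin of these 16 has a run of 20 nt or more in common with some other annotated hairpin. The mir-92a family is not among the 16, because its listed symbols matched none. The copy with the highest mean CPM held a median of 67.3% of its family's counts (means of the libraries), with a range of 47.7 to 99.9%. At the low end, in mir-26a, that copy led only in replicate 1, with 59.6% there and 35.8% in replicate 2. The leading copy held 99.0% in both mir-181a and mir-181b (means of the libraries), and 1 of the 16 families, mir-219a, lay above both. Among the listed families below the limit of 100 counts, mir-194 had all of its 41 and 239 counts in Mir194-2, in replicates 1 and 2. The shares are a description, since the leading copy was picked from the same counts.

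**Figure D3:**
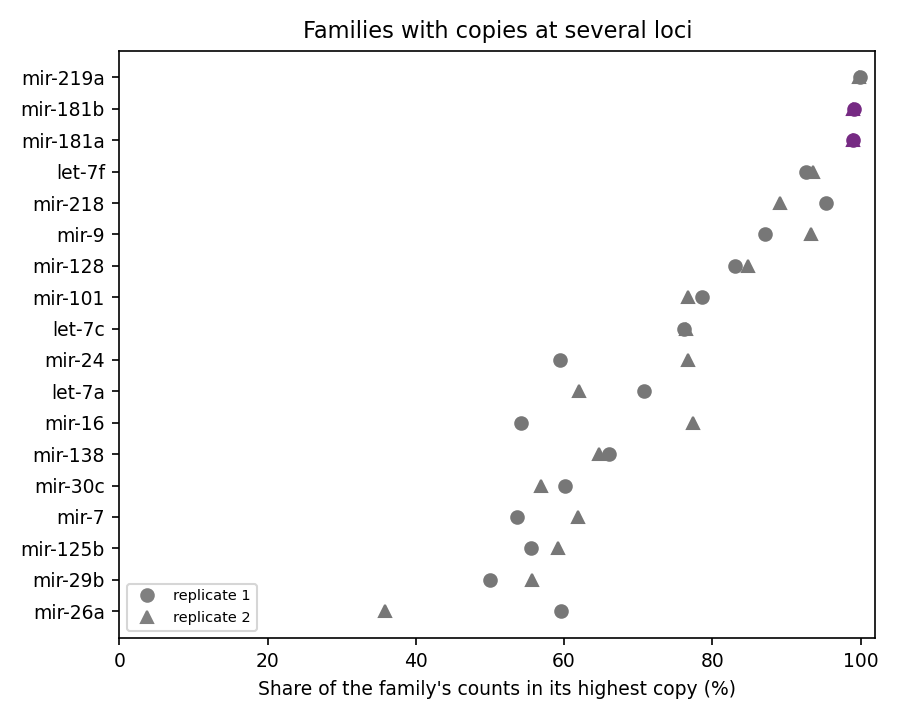
Share of a family's counts in its copy of highest mean CPM (horizontal axis, %), in replicate 1 (circles) and replicate 2 (triangles). Shown are mir-181a and mir-181b (coloured) and 16 other families with at least 100 counts in each library (grey). Mir-181a and mir-181b lie at 99.0% (means), above every family shown but mir-219a, against a median of 67.3%.

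Neighbouring miRNA genes on 1 strand often differed in level in these libraries. Outside the family, 146 pairs of neighbours at most 10 kb apart had at least 1 detected gene. Their levels differed by a median of 3.72 in log2(CPM + 1), with quartiles of 1.99 and 5.76. The other gene of a pair need not be detected, and in many of these pairs it had 0 counts, whereas all 6 members were detected. The difference was 5.97 for Mir181a-1 and Mir181b-1 and 6.92 for Mir181a-2 and Mir181b-2, with 32 and 24 of the 146 pairs further apart. The pairs further apart include some with an undetected gene. Mir181c and Mir181d differed by 0.10, and 3 of the 146 pairs were closer. This comparison was chosen after the members' values were seen.

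Between the libraries, members differed in opposite directions. The test used here was an exact two-sided binomial test of the counts with library sizes scaled by TMM, a trimmed mean of ratios between libraries, and Benjamini-Hochberg adjustment over the 384 detected genes at 0.05. It covers counting error only and compares these libraries, not conditions. It called 65.1% of all detected genes, 34.1% as higher in replicate 1 and 31.0% as higher in replicate 2. It called 4 of the 6 members, 2 in each direction, so the members' share is close to that of all genes.

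On the TMM scale, as log2(value + 1) of replicate 1 over replicate 2, the difference was 0.55 for Mir181a-1 (exact binomial test, adjusted p = 2.23e-51) and 0.21 for Mir181d (adjusted p = 4.59e-17), the genes called higher in replicate 1. It was -0.30 for Mir181b-2 (exact binomial test, adjusted p = 1.49e-21) and -0.23 for Mir181c (adjusted p = 6.85e-21), the genes called higher in replicate 2. Mir181b-1 had -0.58 (exact binomial test, adjusted p = 0.0775) and Mir181a-2 had 0.39 (adjusted p = 0.269), neither past the threshold, and both rest on 27 to 78 counts per library. The members' median absolute difference was 0.34, against 0.43 over all detected genes, and the family sum differed by 0.01. An edgeR exact test with the common dispersion over detected genes (a coefficient of variation of 34.3%) called 0 of the 6 members, 0 of them at an unadjusted p under 0.05, and 2 of all 384 genes. That dispersion was estimated from the difference between the same 2 libraries, so few calls follow from its construction and the count says nothing about the members. With total counts in place of TMM, which shifts the median over all detected genes from 0.01 to -0.29, Mir181d turned to -0.11 and 5 members were called, of which 1 had its higher level in replicate 1 and 4 in replicate 2, beside 70.6% of all detected genes.

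**Figure D4:**
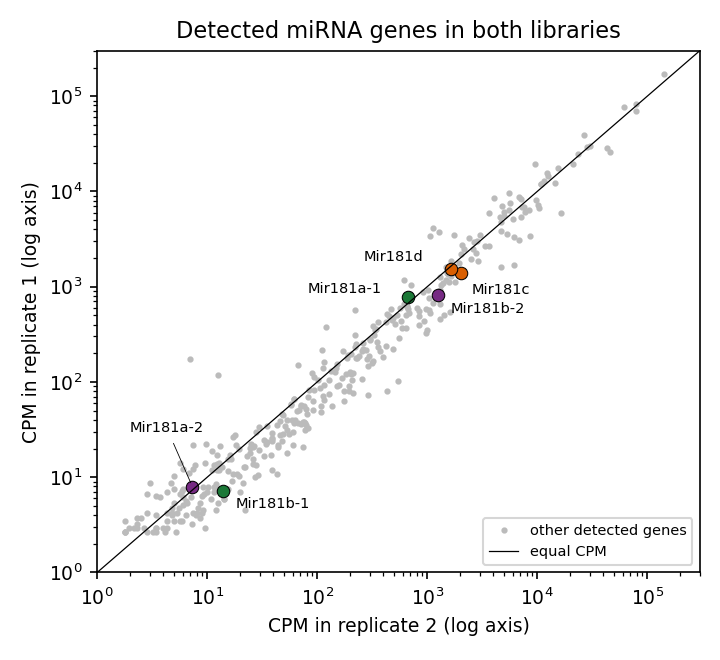
CPM of each detected miRNA gene in replicate 1 (vertical log axis) against replicate 2 (horizontal log axis), with the 6 mir-181 genes named and coloured by cluster and a line at equal CPM. Mir181a-1 and Mir181a-2 lie just above the line, with 781 against 666 CPM and 7.98 against 7.32 CPM, and the other members below it.

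The libraries also split the family differently over the clusters. The chromosome 1 cluster made up 17.4% of the family in replicate 1 (Wilson interval 16.8 to 18.0%) and 12.1% in replicate 2 (11.8 to 12.5%). The chromosome 2 cluster made up 18.4% in replicate 1 (17.8 to 19.0%) and 22.6% in replicate 2 (22.2 to 23.1%). Neither pair of intervals overlaps, so these shares differ by more than counting error. These shares do not depend on how the libraries are scaled.

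Listed genes of other cells that could carry miR-181 were also read. The microglia, leukocyte and lymphoid list, 6 of 7 detected, had sums of 3748 and 3446 CPM in replicates 1 and 2. It was led by Mir342 at 2121 ± 145.4 CPM and Mir150, a lymphocyte microRNA, at 648 ± 15.6 CPM. The median gene of this list had 127 CPM and the lowest 2.14 CPM. The oligodendrocyte list, 2 of 3 detected and led by Mir338 and Mir219a-2, summed to 6092 and 9710 CPM. The endothelial and mural list, 3 of 3 detected and led by Mir126a and Mir143, summed to 22045 and 16510 CPM, and the choroid plexus list, 5 of 6 detected and led by Mir34c and Mir204, to 2090 and 3085 CPM. The astrocyte list, 5 of 5 detected and led by Mir29a and Mir21a, summed to 25542 and 25348 CPM. The part of these cells in the differences between the libraries was not tested.

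Almost no read lay opposite a member. Mir181a-2 had 1 count on the other strand in replicate 1, and every other member had 0 in both libraries. For reads that map to 1 place, the limit that a count of 0 sets is 3 counts, which is 0.798 CPM for replicate 1 and 0.536 CPM for the deeper replicate 2. The unstranded counts were the same as the sense counts for every member but Mir181a-2, which had 31 in place of 30 in replicate 1.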

How the data were processed

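The authors deposited, per library, raw counts of reads per miRNA gene on mm10 with GENCODE M21, per the text filed with the tables, in an unstranded and 2 stranded columns below 4 summary lines, which stayed out of library sizes. Which aligner and counter were used is not given in the sources used here. The animals carry CAST/Ei alleles, and how these affect mapping to the reference was not tested. The stranded column with the larger total was taken as sense. Counts were turned into CPM over all 2202 miRNA genes. Symbols, positions and hairpins came from GENCODE M21, which named all 2202 identifiers, and mature arms from RefSeq (GRCm38.p6). RefSeq held both arms of all 6 members and the hairpins of 5, each at the GENCODE position. Runs shared between hairpins were searched among annotated hairpins only.

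The test between libraries was an exact binomial test (scipy 1.17.1) with TMM sizes (edgeR 4.0.16), and its code was tested on simulated data. DESeq2 1.42.0 size factors were an alternative. The tables differed by more than sampling noise (chi-square 243102, 383 degrees of freedom, detected genes), so they are not 1 table filed again. They count as 2 samples because the labels number them so. Intervals are 95% Wilson intervals and, like the floor of 3 counts, cover only counting error: reads carry no molecular identifiers and are no independent molecules.

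Named genes are the members, the 3 genes nearest to the family sum and the 2 highest of each list. Mir124a, the mir-219a, mir-26a, mir-101 and mir-194 families, Mir92-1 and Mir92-2 were added after their values were seen. The members and lists were chosen with earlier results of these data known. The listed symbols of mir-92a, Mir92a-1 and Mir92a-2, matched none of the tables. This does not show an absence of the family. Genes named Mir92-1 and Mir92-2 were measured, with 2353 and 77 counts over both libraries, and were left out of the comparison of copies.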

Additional observations from a re-analysis of the deposited data

How the results depend on the processing

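Beside leaving out a replicate, which with 2 libraries cannot move a mean by more than its SD, 41 alternatives left a level or share within the spread of the libraries, a gene's call and direction as they were, or a count of members within 1.5 times. Among these counts, 4 of the 6 members met a limit of 50 counts per library, as did 281 of all 2202 miRNA genes. The step from 6 to 4 members lies exactly at the limit of 1.5 times. Total counts called 5 members in place of 4, beside 70.6% in place of 65.1% of all detected genes. Of the 41 alternatives, those that changed only the number added before the log2 could not alter a call or a direction. The test uses counts and library sizes alone. Unstranded counts were the sense counts for every member but Mir181a-2, so they could hardly move a share. The family sum of 5075 CPM became 1779 per 1000000 reads of any kind and 6006 CPM without the most abundant gene in the total. It was 3288 CPM from Mir181c and Mir181d alone, the members without a run of 20 nt in common with another hairpin. Opposite-strand counts gave 1.74 CPM, a mean that rests on 1 read in replicate 1. That read was divided by the opposite-strand total of 287729 counts, so the value cannot be set against the floor of 0.798 CPM. Per nt of hairpin, the Mir181c/Mir181d share moved to 66.9%, from 64.7%. The sum ranged from 4534 to 5617 CPM, and the cluster shares as printed, when a replicate was left out. The edgeR exact test with the common dispersion called 0 of the 6 members in place of 4, with a dispersion taken from the same 2 libraries. Total counts turned Mir181d to -0.11 (adjusted p = 1.43e-05, range over its alternatives 4.59e-17 to 1.43e-05) and brought Mir181b-1 past the threshold at -0.87 (exact binomial test, adjusted p = 0.00433, range 0.00433 to 0.0775), a change of scale that moves all genes alike. Unstranded counts moved Mir181a-2 to 8.43 CPM and Mir181d to 1720 CPM. The counts of Mir181d were the same, but the unstranded totals were smaller, at 3470787 and 5173803 in replicates 1 and 2. These totals raised the CPM of every member. Mir181c rose to 1839 CPM, which is within the wider spread of its libraries. No paired analysis was possible because there is 1 group. Depth limits Mir181b-1 and Mir181a-2, which had 27 to 78 counts.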
